A study of Mus musculus with 6 samples.

Results

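The genes that carry cholesterol and fatty acid synthesis were followed in iGBs, germinal center-like B cells grown ex vivo, with and without the arginine methyltransferase Prmt1. The set held 34 of the 39017 genes of the count table and was given by gene names from these pathways. No threshold on a measured value picks its members, although the set was proposed with earlier results of these data known. Of these, 33 were found by gene symbol, and Msmo1, listed under its older symbol Sc4mol, was found by its Ensembl gene ID. They comprised 8 enzymes of early sterol synthesis, 10 enzymes of late sterol synthesis, 7 enzymes of fatty acid synthesis, 5 regulators of the SREBP transcription factors and 4 genes of sterol transport and efflux. Splenic B cells of strain C57BL6/J came from 3 mice with genotype Cg1-cre (Control) and 3 with genotype Cg1-cre Prmt1f/f (Prmt1-null), 2 females and 1 male in each group, with 1 library per mouse. The labels give the treatment as CD40L BAFF IL-4. The cells were cultured for 3.5 days on 40LB feeders, a fibroblast line that supplies CD40L and BAFF, and the feeders were depleted before RNA was taken. The labels give IL-4 at 5 ng/ml and the methods of the study 1 ng/ml, and the age of the animals is not given in the sources used here. Both groups carry the Cγ1-cre driver, which acts only in B cells that transcribe Cγ1 after activation, so Prmt1 was present until then and cells that escaped deletion can remain in a culture.

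Cholesterol is made from acetyl-CoA through mevalonate, squalene and lanosterol, and its synthesis is set mainly by SREBP2, the product of Srebf2, which SCAP carries to the Golgi for activation when sterols are low and INSIG proteins hold back in the endoplasmic reticulum when sterols are high. SREBP1 controls chiefly the fatty acid enzymes, while the oxysterol receptors LXR drive the efflux pumps Abca1 and Abcg1. Activated B cells that grow and divide build new membranes, and products of the mevalonate pathway also serve protein prenylation.

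Prmt1 itself, the gene targeted for deletion, served as the check of the labels. It had normalised read counts (counts scaled to a common library size) of 3941, 3901 and 4809 in Control and of 1734, 1469 and 1469 in Prmt1-null libraries, and thus fell to 36.9% of the Control mean (log2 fold change −1.44, SE 0.095, edgeR quasi-likelihood test with Benjamini-Hochberg adjustment over all genes, adjusted p = 1.12e-05). Library depth ran from 45343250 to 62774232 counts. B cell markers summed to 5970 to 6340 CPM (reads relative to the scaled library size) in Control and 6320 to 6650 CPM in Prmt1-null iGBs. The 16 fibroblast markers summed to 19.4 to 23.8 CPM in Control and 24.4 to 29.9 CPM in Prmt1-null iGBs, without overlap (two-sided exact permutation test, p = 0.10, the smallest that 3 against 3 libraries allow). Of these 16, 8 stayed under 1 CPM in every library, with Lum and Postn at 0. The 5 plasma cell markers summed to 966 to 1090 CPM in Control and 1110 to 1200 CPM in Prmt1-null iGBs, also without overlap (exact permutation test, p = 0.10). Taken singly, 1 of these 5 had groups without overlap and 0 had an edgeR adjusted p under 0.05. Jchain had a log2 fold change of −0.09, and Prdm1, Sdc1, Xbp1 and Irf4 had 0.29, 0.52, 0.29 and 0.16. The sums of the 5 macrophage markers (37.6 to 42.9 and 39.8 to 45.5 CPM), the 5 T cell markers (0.504 to 2.22 and 0.614 to 2.3 CPM) and the 5 proliferation genes (1590 to 1960 and 1570 to 1650 CPM) overlapped between the groups, although the macrophage gene Adgre1 passed the threshold by itself. The part of feeder RNA or of plasma cell differentiation in the values that follow was not tested. In a bulk sample, fewer cells that express a gene and less RNA per cell cannot be told apart.

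Of the 34 members 1 passed the edgeR threshold, an adjusted p under 0.05. This was Nsdhl, an NAD(P)-dependent sterol dehydrogenase that, after Msmo1, acts in the removal of the methyl groups at carbon 4 of the sterol ring. It fell to 74.3% of its Control level. The other 33 members did not pass the test (DESeq2 and limma-voom likewise called 0 of them), and most were measured tightly enough to give narrow limits, since the 95% interval of the fold change lay within 1.4-fold of no change for 29 of the 34. Across all 18268 genes tested, 1.19% were called at this threshold, 0.591% as higher and 0.602% as lower, and 50.9% had an interval within 1.4-fold.

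Because sterol genes are often read through a short element that SREBP2 binds, the 250 bases before the start of each member were taken from RefSeq (build GRCm38.p6), which gave a window for 27 of the 34. Windows of Nsdhl, the member that fell, of Hmgcs1, the early enzyme with the highest level, and of Msmo1, the enzyme that acts before Nsdhl, are printed 5′ to 3′ on the strand of the gene. The letters searched on both strands were TCACNCCAC, one form of the sterol response element, and CCAAT, the box bound by NF-Y, a cofactor of SREBP. Matches are in capitals, and a CCAAT box on the opposite strand reads ATTGG.
Nsdhl, chrX:72918271-72918520, plus strand: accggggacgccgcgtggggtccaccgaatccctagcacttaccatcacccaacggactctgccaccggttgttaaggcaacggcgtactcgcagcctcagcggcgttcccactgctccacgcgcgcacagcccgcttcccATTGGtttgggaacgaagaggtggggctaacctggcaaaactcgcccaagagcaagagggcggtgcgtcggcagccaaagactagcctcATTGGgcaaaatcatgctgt
Hmgcs1, chr13:119690101-119690350, plus strand: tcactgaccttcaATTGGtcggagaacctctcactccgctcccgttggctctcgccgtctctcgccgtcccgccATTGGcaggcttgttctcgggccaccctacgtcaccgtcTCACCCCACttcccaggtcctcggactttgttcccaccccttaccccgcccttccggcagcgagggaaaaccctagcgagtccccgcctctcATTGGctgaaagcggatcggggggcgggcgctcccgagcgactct
Msmo1, chr8:64733579-64733828, minus strand: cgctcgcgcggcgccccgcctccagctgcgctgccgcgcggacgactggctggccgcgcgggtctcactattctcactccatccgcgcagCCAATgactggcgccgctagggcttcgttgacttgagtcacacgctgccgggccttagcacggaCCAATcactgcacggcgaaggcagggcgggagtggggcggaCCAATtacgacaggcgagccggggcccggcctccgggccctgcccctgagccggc
The Hmgcs1 window held the element TCACCCCAC and 3 CCAAT boxes, the Msmo1 window held 3 CCAAT boxes, and the Nsdhl window held 2 CCAAT boxes and no TCACNCCAC. Some genes have several starts, so that the 27 members have 36 windows. The element was present in 1 of the 36 (2.78%) and in 1.05% of the 32851 windows of all genes. A CCAAT box was present in 21 of the 36 (58.3%), which belong to 20 members, and in 33.8% of all windows. The absence of these letters says nothing on binding outside the window or at variant elements.

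The levels of the members, compared between genes only per kilobase of exon (RPKM), spanned from 436 RPKM for Scd1 to 0.111 RPKM for Nr1h3, as means over the 6 libraries. The length used joins all annotated exons of a gene, and it exceeds the longest coding transcript by differing amounts. For Msmo1 it was 6144 against 2044 bases, and for Cyp51 4415 against 3931 bases. The order of the genes depends in part on this choice. Scd1 and Scd2, the desaturases that make monounsaturated fatty acids, led the set, the latter at 98.9 RPKM. Scd1 ranked 181 among all genes and its reads made up 0.207 to 0.222% of all counts per library, while the whole set took 0.460 to 0.477%. Srebf2 followed at 45 RPKM, and then Cyp51 (27.8), Hmgcs1 (27.7), Acly (26.5), Insig1 (24.6) and Stard4 (19.4 RPKM). Neighbours in this order such as Cyp51 and Hmgcs1, or Sqle (18.6) and Sc5d (18.5 RPKM), differed by less than the spread between libraries. The lowest were Tm7sf2 (0.917 RPKM), Elovl6 (0.734), Abca1 (0.611) and Nr1h3.

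**Figure D1:**
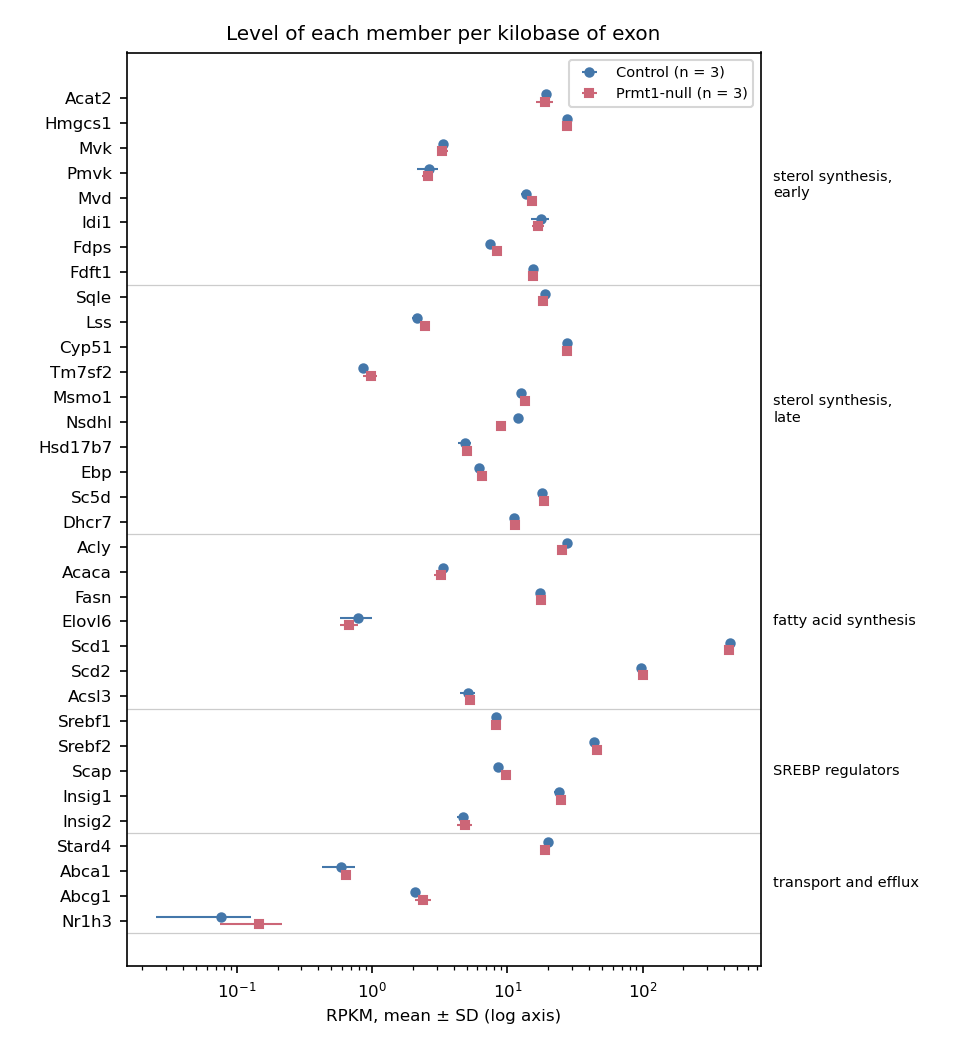
RPKM of the 34 members on a log axis, as mean ± SD of 3 Control (circles) and 3 Prmt1-null libraries (squares), grouped by role. The group means run from 0.0762 RPKM for Nr1h3 to 439 RPKM for Scd1, both in Control, and the pairs of means lie close together for nearly all members, with Nsdhl lower in Prmt1-null iGBs.

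Replicates of the members were tight. The median coefficient of variation over the members was 5.22% in Control and 4.81% in Prmt1-null libraries, against 8.55% and 6.8% for all genes with a mean normalised count of at least 100, although the members also had more reads (median normalised count 2881, against 1250). The most variable members in Control were the low ones Nr1h3 (67.1%), Abca1 (27.2%), Elovl6 (26.4%) and Pmvk (17.7%). The libraries did not order the members in one way. Prmt1-null replicate 2 was the highest library for 9 members and Control replicate 2 the lowest for 9, while each of the 6 libraries was highest for at least 2 members and lowest for at least 3.

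**Figure D2:**
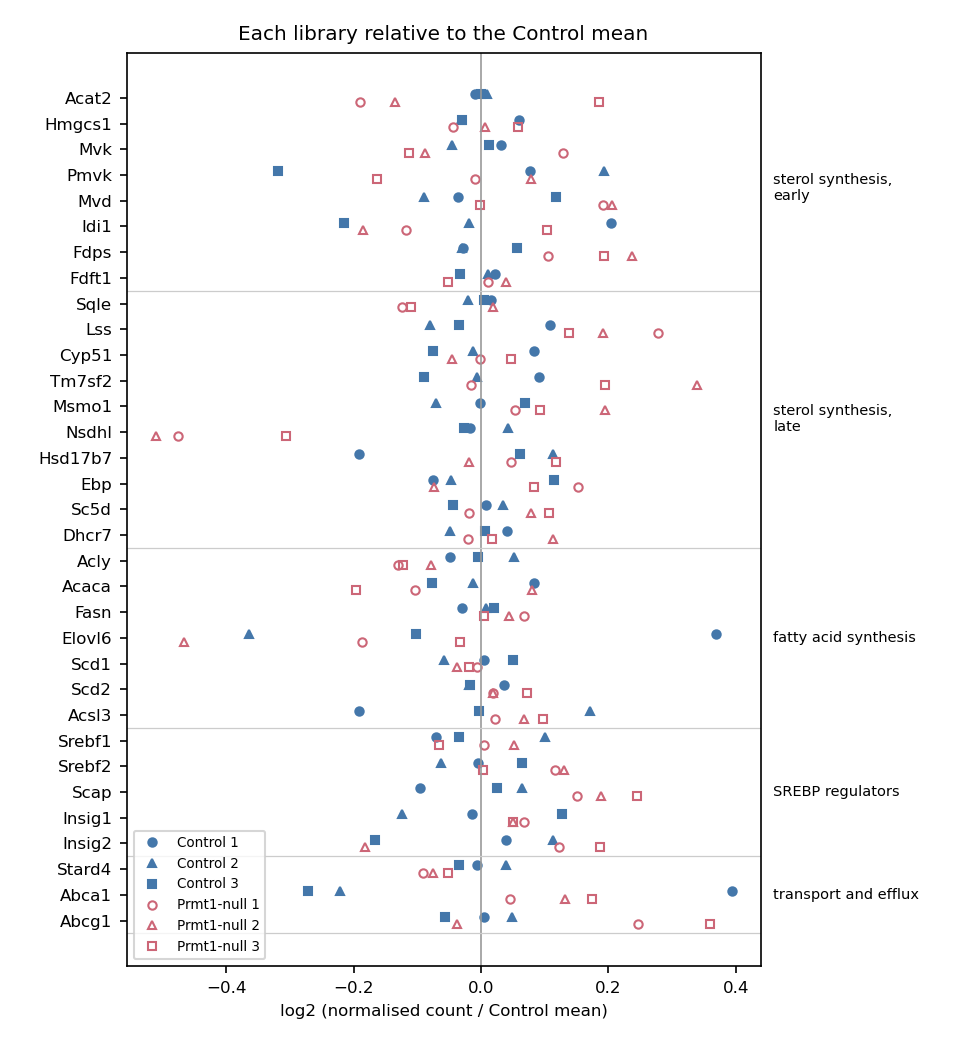
Normalised count of each member in each of the 6 libraries, as log2 of the ratio to the Control mean. Filled symbols are Control and open symbols Prmt1-null libraries. Nr1h3, with 2 to 34 reads per library, is not drawn. For Nsdhl the 3 open symbols lie apart to the left of the 3 filled ones, whereas for most members open and filled symbols mix.

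Early sterol synthesis, from acetyl-CoA to squalene, was compared first. None of its 8 enzymes passed the edgeR threshold and 1, Fdps, had an unadjusted p under 0.05. All 8 intervals lay within 1.4-fold, and the median log2 fold change of the group was −0.01, against −0.0008 for all genes tested. Hmgcs1, which condenses acetyl-CoA and acetoacetyl-CoA ahead of mevalonate, had 7294, 6844 and 6857 normalised counts in Control libraries and 6789, 7029 and 7283 in Prmt1-null libraries. The groups overlapped, and the log2 fold change was 0.01 (SE 0.058, 95% interval −0.12 to 0.13, edgeR adjusted p = 0.973). Fdps, which makes farnesyl pyrophosphate, the branch point to sterols and prenyl groups, had 1680, 1678 and 1782 normalised counts in Control libraries and 1843, 2019 and 1959 in Prmt1-null libraries. Its 3 Prmt1-null libraries all lay above the Control ones, but the log2 fold change of 0.18 (SE 0.081, edgeR adjusted p = 0.35) did not pass the test. The value of Fdps is also uncertain, because 86.4% of the 50-base words of its transcript occur in other annotated genes, mostly in Gm43738, which overlaps it on the same strand.

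The remaining early enzymes showed no separation of the groups. Mvd, the decarboxylase that yields isopentenyl pyrophosphate, had the next largest log2 fold change (0.14, SE 0.098, edgeR adjusted p = 0.599), with 1373, 1323 and 1527 normalised counts in Control libraries and 1608, 1623 and 1407 in Prmt1-null libraries. Squalene synthase, encoded by Fdft1, averaged 3619 ± 73.4 normalised counts in Control libraries and 3619 ± 118 in Prmt1-null iGBs (SD, n = 3). The thiolase Acat2, the kinases Mvk and Pmvk and the isomerase Idi1 had log2 fold changes between −0.06 and −0.02 with edgeR adjusted p from 0.841 to 0.966. Shared sequence also touches Acat2 (45.9% of its words, with Acat3), Fdft1 (30.7%), Idi1 (30.5%) and Hmgcs1 (13.6%, with Gm48342 on the opposite strand). The counts of these genes may include or lack reads of other genes.

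Late sterol synthesis, from squalene to cholesterol, held the only call. Nsdhl (gene ID ENSMUSG00000031349) lies on the plus strand of chromosome X at chrX:72918557-72958514 in mm10, overlaps no other gene's exons, and shares no 50-base word with another transcript. Its normalised counts were 1867, 1947 and 1856 in Control and 1359, 1326 and 1528 in Prmt1-null iGBs. All 3 Prmt1-null libraries lay below all 3 Control libraries, with means of 1890 ± 49.5 and 1404 ± 108 (SD, n = 3). The log2 fold change was −0.43 (SE 0.088, 95% interval −0.62 to −0.24, edgeR adjusted p = 0.0335), which ranked 147 by p among all genes tested. Leaving out 1 library kept the direction, with log2 fold changes of −0.49 to −0.38, but ended the call for 5 of the 6. The edgeR adjusted p was then 0.0635 without Control replicate 1, 0.146 without Control replicate 2, 0.168 without Prmt1-null replicate 1, 0.2 without Prmt1-null replicate 2 and 0.0577 without Prmt1-null replicate 3. It was 0.0362 without Control replicate 3.

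Each group held both sexes. With the 4 libraries of females alone, an alternative chosen after seeing the data, Nsdhl had a log2 fold change of −0.50 (edgeR adjusted p = 0.0398). Ebp, a sterol isomerase and the other member on chromosome X, had 748.7, 763.6 and 854.2 normalised counts in Control libraries and 876.6, 749.5 and 835.3 in Prmt1-null libraries, which overlapped (log2 fold change 0.06, SE 0.11, edgeR adjusted p = 0.873). The nearest gene to Nsdhl, Cetn2, starts on the opposite strand within the promoter window printed for Nsdhl and averaged 1138 normalised counts in Control libraries and 1073 in Prmt1-null libraries (log2 fold change −0.08, edgeR adjusted p = 0.794).

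The enzymes beside Nsdhl in the removal of the methyl groups did not pass the test. Msmo1, the oxidase of the step before, had 4229, 4031 and 4444 normalised counts in Control libraries and 4394, 4847 and 4517 in Prmt1-null libraries (log2 fold change 0.12, SE 0.064, edgeR adjusted p = 0.468). Hsd17b7, the reductase of the step after, had a log2 fold change of 0.05 (SE 0.10, edgeR adjusted p = 0.88). Within each library the ratio of Nsdhl to Msmo1 normalised counts was 0.442, 0.483 and 0.418 in Control and 0.309, 0.274 and 0.338 in Prmt1-null iGBs. The ratio to Hsd17b7 was 1.56, 1.32 and 1.30 in Control and 0.962, 0.983 and 1.03 in Prmt1-null iGBs. The groups did not overlap in either ratio, which restates the lower Nsdhl counts and is no independent support.

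Of the other 9 late enzymes, 8 had an edgeR adjusted p of at least 0.468, and Lss, the cyclase that forms lanosterol, had the smallest at 0.371. Its normalised counts were 1365, 1198 and 1236 in Control and 1535, 1446 and 1393 in Prmt1-null iGBs. The 2 groups did not overlap, with a log2 fold change of 0.20 (SE 0.095, 95% interval −0.0004 to 0.41). Lss overlaps the exons of 4930483K19Rik on the opposite strand, and the strand setting of the counting is not given in the sources used here. Cyp51, the lanosterol demethylase, was the late enzyme with the highest RPKM. It had 7173, 6708 and 6426 normalised counts in Control libraries and 6760, 6561 and 6994 in Prmt1-null libraries. Its means of 6769 ± 377 and 6772 ± 217 (SD, n = 3) were nearly equal, with a log2 fold change of 0.0006 (95% interval −0.13 to 0.13, edgeR adjusted p = 0.997). Sqle, the epoxidase that controls entry into the late part, had a log2 fold change of −0.07 (SE 0.059, adjusted p = 0.657), and Sc5d and Dhcr7, which act near the end, had 0.06 and 0.04. Tm7sf2, a sterol reductase at 0.917 RPKM, had a log2 fold change of 0.18 and a 95% interval of −0.19 to 0.55.

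Summed over the 18 sterol enzymes, the level was 227.1, 220 and 218.7 RPKM in the Control and 216.6, 221.7 and 227.7 RPKM in the Prmt1-null libraries. The groups overlapped and both means were 222 RPKM. By sign, 11 of the 18 had a log2 fold change above 0 and 7 below, with a median of 0.02, and 49.9% of all genes tested were above 0.

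**Figure D3:**
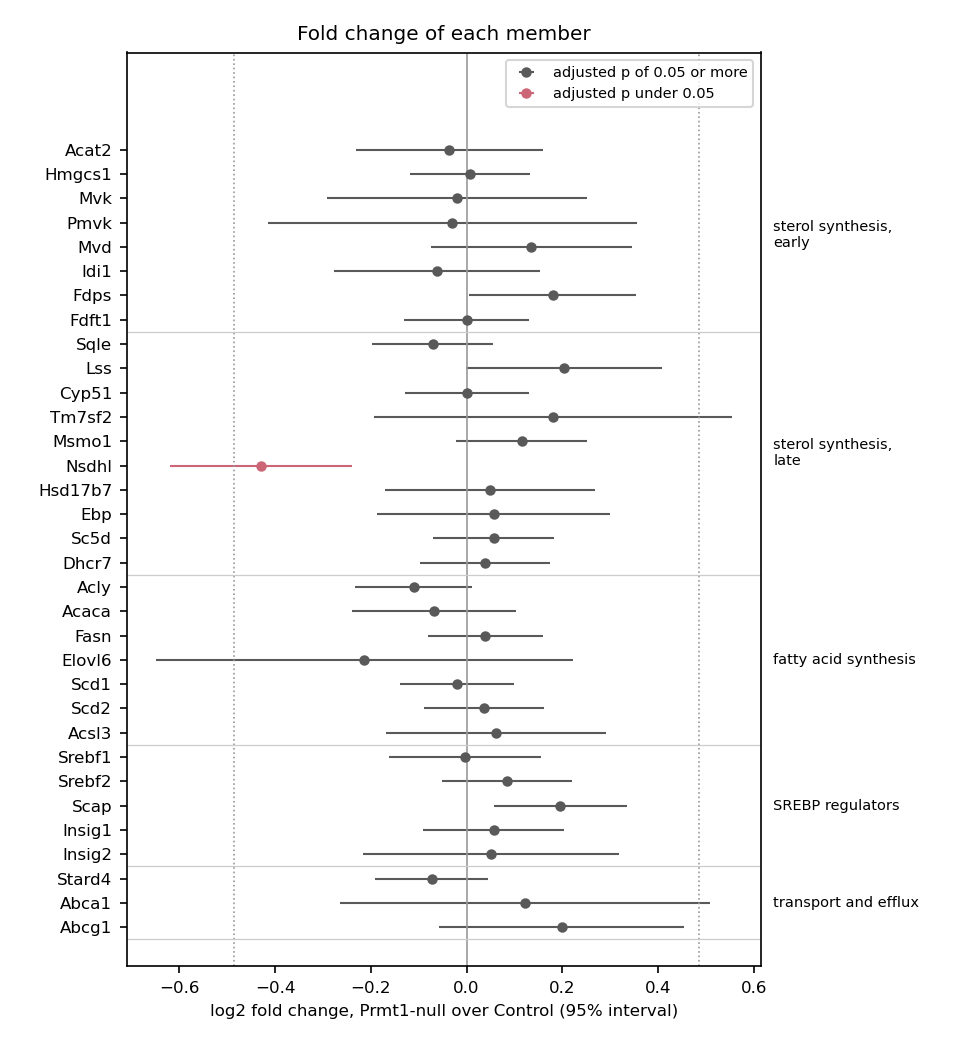
Log2 fold change of Prmt1-null over Control for 33 members (Nr1h3 is left out, as its interval of −0.69 to 2.50 exceeds the axis), with 95% intervals from edgeR. Dotted lines mark 1.4-fold either way. Nsdhl, in red, is the member past the threshold at −0.43, and 29 intervals lie between the dotted lines.

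Among the fatty acid enzymes, none of 7 passed the edgeR threshold and none had an unadjusted p under 0.05. The median log2 fold change was −0.02, and 6 of the 7 intervals lay within 1.4-fold. Acly, which splits citrate to give cytosolic acetyl-CoA for both fatty acids and sterols, had the smallest p. Its normalised counts were 7746, 8307 and 7989 in Control and 7325, 7585 and 7362 in Prmt1-null iGBs. The groups did not overlap, but the difference was small (log2 fold change −0.11, SE 0.057, 95% interval −0.23 to 0.01, edgeR adjusted p = 0.425).

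Scd1 had 118700, 113600 and 122500 normalised counts in Control libraries and 117800, 115300 and 116800 in Prmt1-null libraries. The Prmt1-null values lay inside the Control range, with a log2 fold change of −0.02 (SE 0.056, 95% interval −0.14 to 0.10, edgeR adjusted p = 0.911). Its ratio to Scd2 in RPKM was 4.49 ± 0.188 in Control and 4.32 ± 0.101 in Prmt1-null iGBs (SD, n = 3). Fasn, the fatty acid synthase, had a log2 fold change of 0.04 (edgeR adjusted p = 0.819). Acaca, the acetyl-CoA carboxylase that commits carbon to fatty acids, had 3348, 3133 and 2995 normalised counts in Control libraries and 2939, 3339 and 2757 in Prmt1-null libraries. These overlapped (log2 fold change −0.07, SE 0.079, edgeR adjusted p = 0.774), and 52.6% of the words of Acaca are shared with Gm5182. Leaving out 1 library moved its log2 fold change between −0.14, without Prmt1-null replicate 2, and −0.0093, without Prmt1-null replicate 3. Elovl6, the elongase of palmitate, had 361.1, 217.3 and 260.6 normalised counts in Control libraries and 245.6, 202.5 and 273.4 in Prmt1-null libraries. Control replicate 1 was the highest of the 6 and the groups overlapped (log2 fold change −0.21, SE 0.20, 95% interval −0.65 to 0.22, edgeR adjusted p = 0.712). The coefficient of variation of Elovl6 was 26.4% in Control libraries, and without Control replicate 1 its log2 fold change was 0.01. Acsl3, an acyl-CoA synthetase, had a log2 fold change of 0.06 (edgeR adjusted p = 0.853).

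The SREBP regulators gave 0 of 5 past the edgeR threshold, and all 5 intervals lay within 1.4-fold. Scap, the escort of SREBP, had an unadjusted p under 0.05. Its normalised counts were 3273, 3658 and 3559 in Control and 3884, 3984 and 4146 in Prmt1-null iGBs. All 3 Prmt1-null libraries lay above the Control libraries, and their mean was 115% of the Control mean (log2 fold change 0.20, SE 0.065, 95% interval 0.06 to 0.33), but with an edgeR adjusted p of 0.18 the difference did not pass. Scap overlaps the exons of 5830462I19Rik on the opposite strand, and 13.1% of its words are shared with that gene.

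Srebf2 had 17240, 16550 and 18070 normalised counts in Control libraries and 18740, 18920 and 17320 in Prmt1-null libraries. The groups overlapped through Prmt1-null replicate 3, with a log2 fold change of 0.08 (SE 0.063, edgeR adjusted p = 0.614). Srebf1 had means of 2560 ± 163 and 2556 ± 105 normalised counts (SD, n = 3, edgeR adjusted p = 0.992). The ratio of Srebf2 to Srebf1 in RPKM was 5.32 ± 0.512 in Control and 5.62 ± 0.0863 in Prmt1-null iGBs (SD, n = 3). Insig1, itself a target gene of SREBP2, had 4066, 3768 and 4486 normalised counts in Control libraries and 4303, 4252 and 4254 in Prmt1-null libraries, all inside the Control range (log2 fold change 0.06, SE 0.068, 95% interval −0.09 to 0.20, edgeR adjusted p = 0.784). Insig2 had a log2 fold change of 0.05 (SE 0.12, edgeR adjusted p = 0.901).

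For sterol transport and efflux, 0 of 4 passed the edgeR threshold, and 0 had an unadjusted p under 0.05. Stard4, a carrier of cholesterol between membranes, had 6111, 6309 and 5991 normalised counts in Control libraries and 5759, 5822 and 5922 in Prmt1-null libraries. The groups did not overlap, but the log2 fold change was −0.07 (SE 0.055, 95% interval −0.19 to 0.04, edgeR adjusted p = 0.613). Abcg1 had 839.3, 865.7 and 804.9 normalised counts in Control libraries and 992.3, 815.5 and 1074 in Prmt1-null libraries, where replicate 2 lay within the Control range (log2 fold change 0.20, SE 0.12, edgeR adjusted p = 0.506). Its log2 fold change was 0.31 without Prmt1-null replicate 2 and 0.11 without Prmt1-null replicate 3. Abca1 had 439.6, 287.1 and 277.1 normalised counts in Control libraries and 345.2, 366.5 and 377.7 in Prmt1-null libraries (log2 fold change 0.12, SE 0.18, edgeR adjusted p = 0.822). That value rested on single libraries, since it was 0.37 without Control replicate 1, 0.02 without Control replicate 2 and 0.0061 without Control replicate 3. Nr1h3, which encodes LXRα, had 2.4, 14.0 and 15.3 normalised counts in Control libraries and 16.1, 31.2 and 13.2 in Prmt1-null libraries. With 2 to 34 reads per library, its log2 fold change of 0.90 (SE 0.74, 95% interval −0.69 to 2.50) sets no useful bound.

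Over all roles, 6 of the 34 members (17.6%) had groups that did not overlap, against 19.9% of all genes tested and 22.7% of the 13079 genes with a mean normalised count of at least 100. Of the 6, Fdps, Lss and Scap were higher in Prmt1-null iGBs and Nsdhl, Acly and Stard4 lower, where 9.95% of all genes were higher without overlap and 9.92% lower. An unadjusted p under 0.05 was reached by 3 members, Nsdhl, Scap and Fdps, and by 13.5% of all genes. Called genes made up 1.65% of those with a mean of at least 100. The share of members with an interval within 1.4-fold was 29 of 33 at that mean (87.9%), against 71% of genes. The median size of the log2 fold change, without its sign, was 0.06 over the 33 members and 0.11 over the 13079 genes with that mean.

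**Figure D4:**
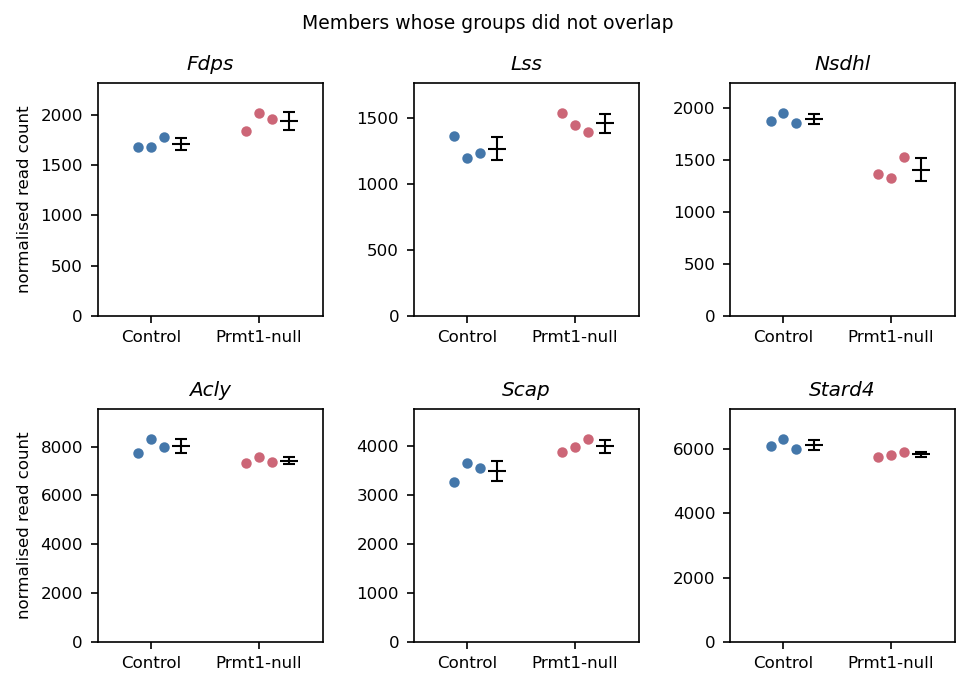
Normalised read counts of the 6 members whose 3 Control and 3 Prmt1-null libraries did not overlap, from 0 upward, with 1 point per library and the mean ± SD beside them. Fdps, Lss and Scap were higher and Nsdhl, Acly and Stard4 lower in Prmt1-null iGBs, and as a ratio of means the step is widest for Nsdhl, at 74.3% of the Control mean. Only Nsdhl passed the edgeR threshold, and the others had edgeR adjusted p from 0.18 (Scap) to 0.613 (Stard4).

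Other genes of these pathways that are not members were read from a list of 57, of which 56 were in the table and 50 were tested. None was called by edgeR or limma-voom, and DESeq2 called 1, Lbr. An unadjusted edgeR p under 0.05 was reached by 9 of the 50 (18%), against 13.5% of all genes. The groups did not overlap for 12 of the 50 (24%), against 19.9% of all genes, and the median log2 fold change of the 50 was 0.04. In the sterol group, Lbr, a sterol reductase of the inner nuclear membrane that also anchors chromatin, had 14980, 14510 and 14790 normalised counts in Control libraries and 12660, 12820 and 13640 in Prmt1-null libraries. The groups did not overlap (log2 fold change −0.18, SE 0.059, edgeR adjusted p = 0.173). Soat2, a sterol esterifying enzyme at 30 to 84 reads per library, had 71.25, 50.61 and 32.85 normalised counts in Control libraries and 70.45, 76.97 and 69.53 in Prmt1-null libraries, which overlapped (log2 fold change 0.49, SE 0.36, edgeR adjusted p = 0.607).

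In the fatty acid group 6 of 22 tested genes (27.3%) had an unadjusted p under 0.05, against 13.5% of all genes. Acss2, which makes acetyl-CoA from acetate, had 421.5, 477.4 and 488.4 normalised counts in Control libraries and 628, 667.1 and 560.9 in Prmt1-null libraries, with the Prmt1-null libraries all above (log2 fold change 0.42, SE 0.13, edgeR adjusted p = 0.139). Mcat, of the separate mitochondrial fatty acid synthesis, had 402.1, 450.3 and 372.4 in Control and 279.8, 345.4 and 294.1 in Prmt1-null iGBs, all lower (log2 fold change −0.41, SE 0.15, edgeR adjusted p = 0.22). The other four of the 6 were picked out once their values were known. Mecr and Oxsm, also of the mitochondrial route, had log2 fold changes of −0.43 and −0.26 (edgeR adjusted p = 0.258 and 0.303), the desaturase Fads2 had −0.28 (0.293) and the dehydratase Hacd3 had 0.23 (0.313). Of the 8 genes that process SREBP, 2 (25%) had an unadjusted p under 0.05, against 13.5% of all genes. The groups did not overlap for 3 of the 8 (37.5%), all higher in Prmt1-null iGBs, against 19.9% of all genes in either direction. Erlin2, which acts in the degradation of sterol-sensing proteins, had 893.7, 954.7 and 1101 normalised counts in Control libraries and 1127, 1255 and 1160 in Prmt1-null libraries. These did not overlap (log2 fold change 0.26, SE 0.11, edgeR adjusted p = 0.291). Tmem55b had 5108, 5494 and 5688 normalised counts in Control libraries and 6162, 5741 and 6049 in Prmt1-null libraries, which did not overlap (log2 fold change 0.14, SE 0.061, edgeR adjusted p = 0.322).

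**Figure D5:**
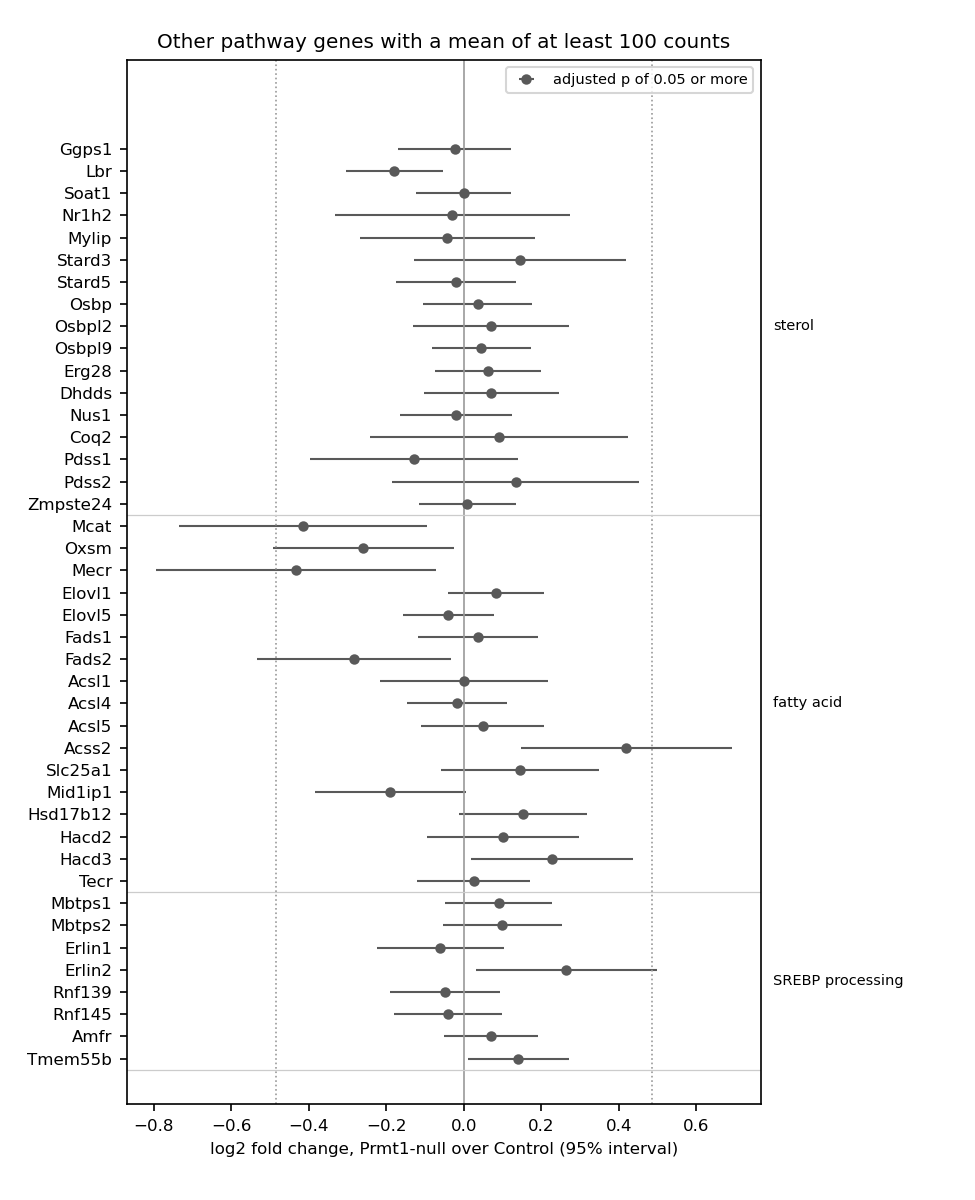
Log2 fold change of Prmt1-null over Control for the 42 other pathway genes with a mean normalised count of at least 100, with 95% intervals from edgeR and dotted lines at 1.4-fold. All have an adjusted p of 0.05 or more, and 36 of the 42 intervals lie within the dotted lines. Acss2 at 0.42 and Mcat and Mecr at −0.41 and −0.43 lie farthest from 0.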

How the data were processed

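RNA was purified from iGBs after depletion of the feeders, and ribosomal RNA-depleted stranded libraries were sequenced. Reads were trimmed by the authors (Trimmomatic 0.32), mapped to mm10 (STAR 2.3.0e) and counted on exons (featureCounts 1.4.4), and what they deposited are these raw counts, neither normalised nor filtered. The 398 chromosome Y genes were left out, following the study's methods, and low genes were removed by filterByExpr (minimum count 10), which left all 34 members among 18268 tested genes. The comparison used edgeR 4.0.16 in R 4.3.3 (TMM, quasi-likelihood test, Benjamini-Hochberg adjustment over all genes). The script was tested on simulated data. RPKM were computed from the counts with exon lengths of GENCODE release M21, to which 37607 genes matched by ID and 804 by symbol. Each library is 1 mouse, and intervals of counts cover no PCR copies. Full values were given for called members, for the 3 members with the smallest p and the highest level of each of 4 roles (sterol synthesis as 1 role), and for the 2 other pathway genes with the smallest p per group. The members and lists were chosen with earlier results of these data known. Per-library values of Hmgcs1, Mvd, Msmo1, Ebp and Abca1 go beyond this rule and, like the females-only fit, the ratios of Nsdhl to Msmo1 and Hsd17b7, the 1.4-fold bound and Cetn2, were added after the data had been seen. Alternatives were DESeq2 1.42.0, limma-voom (limma 3.58.1), median-of-ratios factors, no filter, replicate number as a block, sex as a covariate, chromosome Y kept, and each library left out.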

Additional observations from a re-analysis of the deposited data

How the results depend on the processing

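The 218 genes called among all tested became 727 with DESeq2 and 710 with no filter on low counts, and 31 to 350 when 1 library was left out. The 1 member called, Nsdhl, was called in every other setting with all 6 libraries except the replicate block, where 0 were called (log2 fold change −0.43, edgeR adjusted p = 0.0743), and its adjusted p over those settings ran from 0.00033 (DESeq2) to that value. Leaving out 1 library gave 0 to 1 members called. Same-numbered libraries come from different mice, and their deviations from the group means correlated by −0.07, 0.052 and −0.079. With so few libraries, these values cannot show whether same-numbered libraries shared a culture or a preparation. What the replicate numbers stand for was not tested. With DESeq2, 1 of the other pathway genes was called, against 0. Members without overlap were 6 under other scalings and 8 to 11 without 1 library, where 28 to 33.6% of all genes did not overlap. The sign changed for members that were not called, Elovl6 (−0.21) the farthest from 0 among them. With no filter, Fdft1 was at 0.0047 and Srebf1 at 0.0021, and Cyp51 was at −0.0007 with DESeq2 and −0.0008 with median-of-ratios factors. Without 1 library the log2 fold changes spanned −0.1629 to 0.0389 for Acat2, −0.0215 to 0.1563 for Acsl3, −0.0346 to 0.0475 for Cyp51, −0.3695 to 0.0145 for Elovl6, −0.0157 to 0.0248 for Fdft1, −0.0191 to 0.0414 for Hmgcs1, −0.0347 to 0.1081 for Hsd17b7, −0.1568 to 0.0543 for Idi1, −0.0029 to 0.1256 for Insig1, −0.025 to 0.1603 for Insig2, −0.0955 to 0.0235 for Mvk, −0.1649 to 0.0801 for Pmvk, −0.0488 to 0.0066 for Scd1 and −0.0336 to 0.0502 for Srebf1. Members that kept their sign but moved by over 1.5 times spanned 0.0061 to 0.3673 for Abca1, 0.1101 to 0.3097 for Abcg1, −0.1439 to −0.0093 for Acaca, 0.0045 to 0.0709 for Dhcr7, 0.0107 to 0.1231 for Ebp, 0.453 to 1.2432 for Nr1h3, 0.03 to 0.0965 for Sc5d, 0.017 to 0.058 for Scd2, −0.1118 to −0.0405 for Sqle, 0.0534 to 0.1229 for Srebf2 and 0.0991 to 0.2727 for Tm7sf2. The causes were not tested. Nr1h3 had 2 to 34 reads per library and a coefficient of variation of 67.1% in Control libraries. The wide intervals of Elovl6 and Abca1 go with coefficients of variation of 26.4% and 27.2% in Control libraries.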
